A study of Bos taurus with 8 samples.

Results

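The collagen genes of bovine articular chondrocytes were examined by type in RNA-Seq libraries of cells from the superficial zone (SZCs) and from the deep zone (DZCs). Members were all rows of the deposited count table whose gene symbol was COL, a number, A and a number, with nothing after it. This gave 38 genes of the 24596 counted. They belong to the fibril-forming, fibril-associated, beaded filament, basement membrane, short-chain network, anchoring fibril, multiplexin and transmembrane classes of collagen, with *COL26A1* and *COL28A1* outside these classes. A list of 45 collagen genes sorted into these classes held 7 more (*COL6A4*, *COL6A5*, *COL19A1*, *COL21A1*, *COL22A1*, *COL24A1* and *COL25A1*), which were not analysed here.

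Collagens are extracellular proteins in which alpha chains wind around each other into a triple helix. In hyaline cartilage the fibrils are built mainly of type II collagen, with type XI collagen inside the fibril and type IX collagen on its surface. Fibrils of type I collagen, with types III and V, prevail in skin, tendon and fibrous tissues, and type X collagen marks hypertrophic chondrocytes. Fibril-associated collagens with interrupted triple helices (FACITs, such as types IX, XII and XIV) bind to fibrils, and type VI collagen forms the beaded filaments of the pericellular matrix around each chondrocyte.

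Both kinds of cells were wild type and came from knee joint cartilage of calves aged 1 to 2 weeks. Each cartilage core of a joint gave a superficial and a deep slice, with the middle zone discarded. Slices were kept apart by zone and joint and digested with enzymes, and the isolated cells were kept for 3 days in DMEM/F12 medium with FBS before RNA was taken, so every level below is that of cultured cells. Each zone had 2 libraries (replicates 1 and 2), described as biological duplicates. The SZC libraries (replicates 1 and 2, in this order throughout) held 19918970 and 20429362 counts, and the DZC libraries held 21890549 and 20611568. Levels are given as CPM, the count scaled to a common library total after TMM scaling (described below). The smallest level read here as detected, 3 counts, was at 0.136 and 0.129 CPM in SZCs and at 0.187 and 0.134 CPM in DZCs. The zone labels were checked against their markers. All 6 superficial zone genes listed (*PRG4*, *VIT*, *EPHA3*, *WIF1*, *THBS4* and *CREB5*) were called higher in SZCs, with summed levels of 4801 and 3623 CPM in SZCs and 77.9 and 165 CPM in DZCs. *PRG4* is an established marker of this zone, whereas *CREB5* was picked by the study from these libraries, and it also names *VIT*, *EPHA3*, *WIF1* and *THBS4* with its RNA-Seq results, so these are not independent of them. All 7 chondrocyte markers (*ACAN*, *SOX9*, *SOX5*, *SOX6*, *MATN3*, *COMP* and *HAPLN1*) were counted in all 4 libraries. One of them, *MATN3* (matrilin 3), was called between zones, higher in DZCs (log2 fold change -2.04, FDR = 0.00212). It was not called without SZC replicate 1 (FDR = 0.855) or without SZC replicate 2 (FDR = 0.111), with scaling by library totals (FDR = 0.109) or by the quasi-likelihood test of edgeR (FDR = 0.244).

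SZCs and DZCs were compared by the exact test of edgeR on counts scaled by the trimmed mean of *M* values (TMM), with a Benjamini–Hochberg false discovery rate (FDR) below 0.05 over all 12857 genes that passed the filter on low counts. FDR values below are those of this test unless another is named, and SE stands for the standard error of a log2 fold change. Of the 38 collagen genes, 31 passed the filter and 7 did not. Of the 31, 3 were called higher in SZCs, which is 9.68% of them, beside 2.23% of all genes tested. None was called higher in DZCs, beside 0.7% of all genes tested. An unadjusted p-value below 0.05 was found for 14 collagen genes and for 1169 of all genes tested. DESeq2 called 5 collagen genes higher in SZCs and 2 higher in DZCs, beside 289 and 108 of all genes, and the quasi-likelihood test of edgeR called 0 genes of any kind in either direction, where 6 collagen genes and 1126 genes in all had an unadjusted p-value under 0.05. The median log2 fold change of SZCs over DZCs was 0.84 for the 31 collagen genes and -0.04 for all genes tested. The collagen median was 0.43 without DZC replicate 1 and 0.49 without SZC replicate 2, each over the 33 collagen genes then tested. It was 1.65 over 31 collagen genes without DZC replicate 2.

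The zones were also compared library by library. Both SZC libraries were above both DZC libraries for 16 of the 31 collagen genes (51.6%), beside 21% of all genes tested. Both DZC libraries were above both SZC libraries for 6 (19.4%), beside 20.5% of all genes tested, and the libraries of the zones overlapped for the other 9. The 6 genes with both DZC libraries higher were those of types II, IX and XI, and no tested gene of any other type had this order. In these bulk libraries, fewer cells of a kind and less RNA per cell cannot be told apart.

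**Figure D1:**
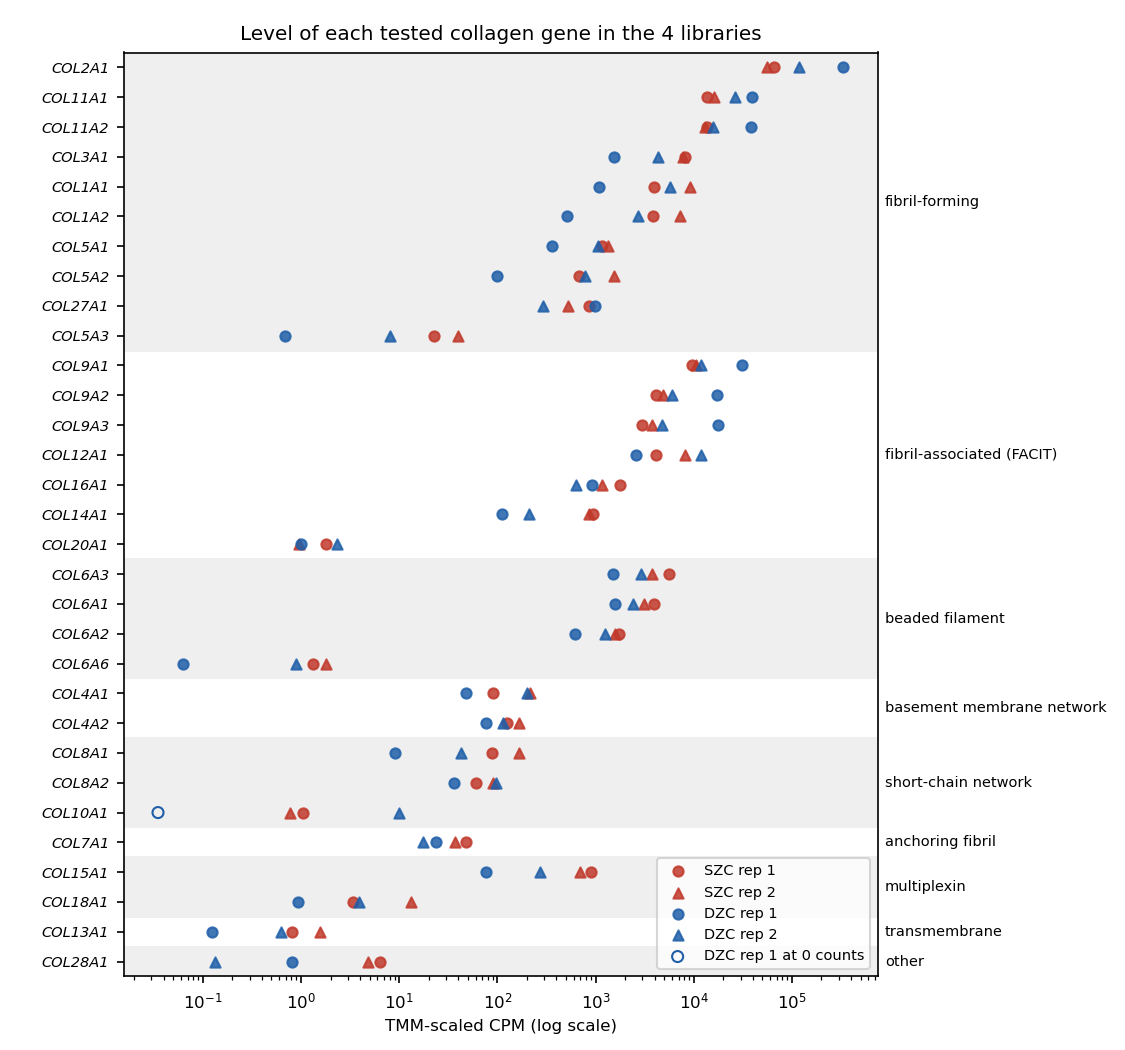
Level of each of the 31 tested collagen genes (rows, grouped by class and ordered by mean level) in the 4 libraries, as TMM-scaled CPM on a log axis, with circles for replicate 1 and triangles for replicate 2 of SZCs (red) and DZCs (blue); the open circle marks *COL10A1*, which had 0 counts in DZC replicate 1 and is drawn at the left edge. Both blue points lie right of both red points for the 6 genes of types II, IX and XI alone, and left of them for 16 genes.

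The collagen genes called between zones were *COL14A1*, *COL15A1* and *COL28A1*, and all of them were higher in SZCs. *COL14A1* encodes the FACIT of type XIV collagen, which binds fibrils and proteoglycans. It is listed as ENSBTAG00000013369 and was at 946 and 857 CPM in SZC replicates 1 and 2, and at 111 and 209 CPM in DZC replicates 1 and 2. Its SZC replicates lay close together, its DZC replicates differed 1.88-fold, and the lower SZC library was well above the higher DZC library. It was 5.62-fold higher in SZCs, with a log2 fold change of 2.49 (SE 0.45, FDR = 2.741e-05).

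*COL15A1* encodes the multiplexin of type XV collagen, which lies beside basement membranes and carries a fragment related to endostatin at its end. Listed as ENSBTAG00000010082, it was at 890 and 692 CPM in SZCs and at 77.1 and 271 CPM in DZCs. The zones did not overlap, although the DZC libraries differed 3.52-fold from each other. Its log2 fold change was 2.18 (SE 0.63, FDR = 0.0379), a 4.55-fold difference, with 1.55 without DZC replicate 1 and 3.38 without DZC replicate 2. *COL28A1*, which encodes type XXVIII collagen and is listed as ENSBTAG00000024420, had low counts, namely 141 and 112 for SZCs and 13 and 3 for DZCs. These correspond to 6.41 and 4.83 CPM in SZCs and to 0.809 and 0.134 CPM in DZCs. Its log2 fold change was 3.60 (SE 0.87, FDR = 0.00798), with 5.33 without DZC replicate 1 and 2.80 without DZC replicate 2, whose count was at the detection floor.

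These calls rest on few libraries. By the quasi-likelihood test of edgeR the FDR was 0.192 for *COL14A1*, 0.397 for *COL15A1* and 0.284 for *COL28A1*, and *COL15A1* was not called with scaling by library totals (FDR = 0.143) or by totals without the collagen counts (FDR = 0.123). Without SZC replicate 1 the FDR was 0.0595 for *COL14A1*, 0.499 for *COL15A1* and 0.496 for *COL28A1*, and without SZC replicate 2 it was 0.113 for *COL15A1* and 0.145 for *COL28A1*. The number of collagen genes called higher in SZCs was 0 without SZC replicate 1, 1 without SZC replicate 2, 8 without DZC replicate 1 and 21 without DZC replicate 2. In the same order, 52 of 13302, 123 of 13248, 529 of 13353 and 1607 of 13144 genes of any kind were called higher in SZCs.

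**Figure D2:**
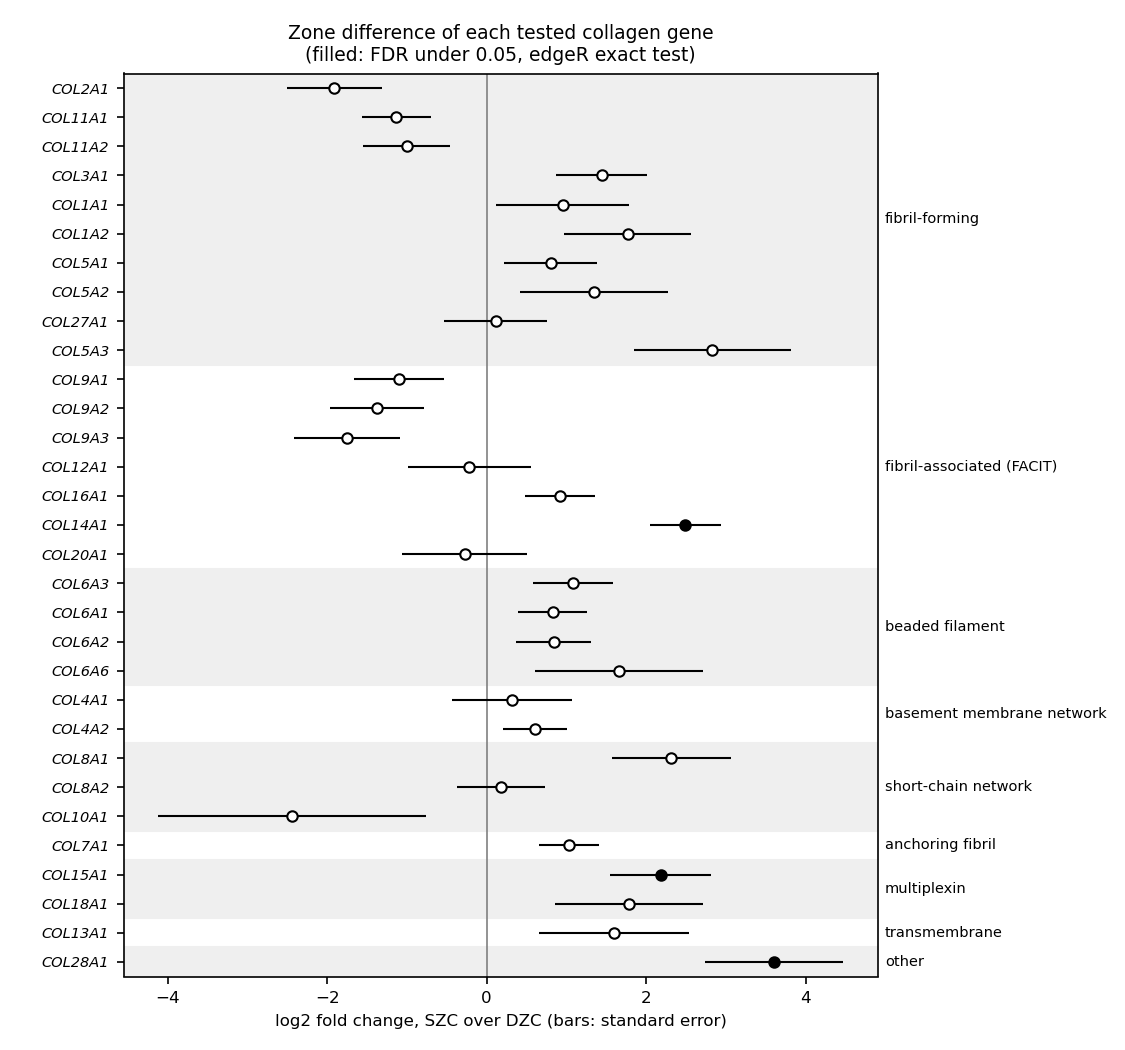
Log2 fold change of SZCs over DZCs for the 31 tested collagen genes, with bars of 1 standard error either side; filled points passed an FDR of 0.05. The 3 filled points, *COL14A1*, *COL15A1* and *COL28A1*, lie on the SZC side, and 22 of the 31 estimates are above 0.

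The genes of the cartilage fibril, of types II, XI and IX, were the 6 tested collagen genes with higher levels in both DZC libraries, and none passed the exact test. *COL2A1*, whose product is the main fibril collagen of hyaline cartilage, was at 64981 and 55516 CPM in SZCs and at 333205 and 118929 CPM in DZCs. The SZC libraries were close together and the DZC libraries differed 2.80-fold, with replicate 1 the higher. Its log2 fold change was -1.91 (SE 0.59, FDR = 0.0658). Of 9 alternatives with all libraries, 2 called it, DESeq2 (FDR = 0.0100) and edgeR with common and then gene-wise dispersion (FDR = 0.0131), and the FDR of the others ran up to 0.720. Its log2 fold change was -0.98 without DZC replicate 1 (FDR = 0.0814) and -2.45 without DZC replicate 2 (FDR = 8.905e-11).

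Type XI collagen is built from chains of *COL11A1* and *COL11A2* together with a chain of *COL2A1*, and lies within the type II fibril. *COL11A1* was at 13784 and 16178 CPM in SZCs and at 39293 and 26355 CPM in DZCs. *COL11A2* was at 13793 and 13089 CPM in SZCs and at 38188 and 15712 CPM in DZCs. For *COL11A1* even the lower DZC library stood well above the SZC libraries, whereas *COL11A2* in DZC replicate 2 was only just above them. Their log2 fold changes were -1.13 (SE 0.44, FDR = 0.206) and -1.0 (SE 0.54, FDR = 0.638), and DESeq2 called *COL11A1* (FDR = 0.0494).

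Type IX collagen, the FACIT on the surface of type II fibrils, has chains of *COL9A1*, *COL9A2* and *COL9A3*. *COL9A1* was at 9514 and 10635 CPM in SZCs and at 31178 and 11902 CPM in DZCs. *COL9A2* was at 4170 and 4808 CPM in SZCs and at 17307 and 5947 CPM in DZCs. *COL9A3* was at 2992 and 3721 CPM in SZCs and at 17773 and 4782 CPM in DZCs. For each chain, DZC replicate 1 stood apart and DZC replicate 2 was close above the SZC libraries. The log2 fold changes were -1.10 (SE 0.56, FDR = 0.581) for *COL9A1*, -1.37 (SE 0.59, FDR = 0.354) for *COL9A2* and -1.75 (SE 0.67, FDR = 0.216) for *COL9A3*. Without DZC replicate 1 they were -0.24, -0.40 and -0.51, and that of *COL11A2* was -0.22.

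The genes of types I, III and V, whose products form the fibrils of fibrous tissues, had estimates on the SZC side, and none passed the exact test. *COL1A1* was at 3956 and 9205 CPM in SZCs and at 1080 and 5721 CPM in DZCs, so that DZC replicate 2 was above SZC replicate 1. *COL1A2*, the second chain of type I collagen, was at 3831 and 7192 CPM in SZCs and at 516 and 2722 CPM in DZCs, with no overlap. *COL3A1*, the single chain of type III collagen, was at 8200 and 7692 CPM in SZCs and at 1540 and 4306 CPM in DZCs. Of these genes *COL3A1* had the closest SZC replicates, and both were above both DZC libraries. The log2 fold changes were 0.95 (SE 0.83, FDR = 0.928) for *COL1A1*, 1.77 (SE 0.80, FDR = 0.447) for *COL1A2* and 1.44 (SE 0.57, FDR = 0.256) for *COL3A1*. They were 0.21, 1.02 and 0.89 without DZC replicate 1 and 2.62, 3.43 and 2.38 without DZC replicate 2, and that of *COL1A1* was 0.22 without SZC replicate 2.

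Type V collagen takes part in starting fibrils and in setting their diameter. *COL5A1* was at 1164 and 1329 CPM in SZCs and at 357 and 1070 CPM in DZCs. *COL5A2* was at 674 and 1545 CPM in SZCs and at 98 and 777 CPM in DZCs. The zones were separate for *COL5A1* and overlapped for *COL5A2*, with log2 fold changes of 0.80 (SE 0.58, FDR = 0.851) and 1.34 (SE 0.93, FDR = 0.843). These were 0.23 and 0.52 without DZC replicate 1, and 1.82 and 3.52 without DZC replicate 2. *COL5A3*, the third chain, was at 22.8 and 39.8 CPM in SZCs and at 0.684 and 8.07 CPM in DZCs, from 502, 924, 11 and 180 counts. Its DZC libraries differed 11.8-fold from each other, and both were below both SZC libraries. The log2 fold change was 2.83 (SE 0.98, FDR = 0.171), with 1.96 without DZC replicate 1 and 5.52 without DZC replicate 2, and DESeq2 called it (FDR = 0.0379). *COL27A1*, the remaining fibril-forming gene, which is known from developing cartilage, was at 848 and 524 CPM in SZCs and at 980 and 288 CPM in DZCs. The 2 DZC libraries lay on either side of both SZC libraries, and its log2 fold change was 0.11 (SE 0.65, FDR = 1), with -0.29 without SZC replicate 1 and -0.50 without DZC replicate 2.

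All 4 genes of type VI collagen that were counted had both SZC libraries above both DZC libraries, and none passed the exact test. *COL6A1* was at 3951 and 3116 CPM in SZCs and at 1570 and 2407 CPM in DZCs. *COL6A2* was at 1737 and 1580 CPM in SZCs and at 619 and 1234 CPM in DZCs. *COL6A3* was at 5548 and 3793 CPM in SZCs and at 1503 and 2909 CPM in DZCs. In each of these chains, which assemble together, DZC replicate 1 was the lowest library. The log2 fold changes were 0.83 (SE 0.43, FDR = 0.590), 0.84 (SE 0.47, FDR = 0.678) and 1.08 (SE 0.50, FDR = 0.432) in the same order. They were 0.56, 0.43 and 0.69 without DZC replicate 1, and 1.18, 1.44 and 1.65 without DZC replicate 2. *COL6A6* had low counts, with 29 and 42 counts in SZCs and 1 and 20 counts in DZCs. According to the gene order of the RefSeq annotation of assembly ARS-UCD2.0, *COL6A1* and *COL6A2* are neighbours, as are *COL5A2* and *COL3A1*, and *COL4A1* and *COL4A2*. The counts were made without regard to strand, so reads of overlapping neighbours on opposite strands cannot be separated.

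The remaining FACIT genes tested were *COL12A1*, *COL16A1* and *COL20A1*, and none passed the exact test. *COL12A1*, whose product binds type I fibrils, was at 4084 and 8194 CPM in SZCs and at 2572 and 11727 CPM in DZCs. Both the lowest and the highest library were DZC libraries, and the log2 fold change was -0.22 (SE 0.77, FDR = 1), with 1.27 without DZC replicate 2 and 0.20 without SZC replicate 1. *COL16A1*, encoding a FACIT found in cartilage and skin, was at 1772 and 1161 CPM in SZCs and at 922 and 627 CPM in DZCs, with no overlap. Its log2 fold change was 0.92 (SE 0.44, FDR = 0.482), and replicate 1 was the higher library in both zones. *COL20A1* had between 16 and 52 counts per library, and its zones overlapped. Of the 7 FACIT genes tested, the 3 type IX genes were higher in both DZC libraries, 2 (*COL16A1* and the called gene, *COL14A1*) were higher in both SZC libraries and 2 overlapped.

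Of the short-chain network genes, *COL8A1*, a gene of type VIII collagen, was at 87.4 and 168 CPM in SZCs and at 9.02 and 42.2 CPM in DZCs. Both SZC libraries were above both DZC libraries, with a log2 fold change of 2.31 (SE 0.75, FDR = 0.0953) and a call by DESeq2 (FDR = 0.0246). It was 1.60 without DZC replicate 1 and 3.84 without DZC replicate 2. *COL8A2*, the other type VIII gene, was at 60.8 and 89.7 CPM in SZCs and at 35.9 and 96.7 CPM in DZCs, with overlap (log2 fold change 0.18, SE 0.55, FDR = 1, and below 0 without SZC replicate 2 or without DZC replicate 1). *COL10A1*, the marker of hypertrophic chondrocytes, had 23 and 18 counts in SZCs, 0 in DZC replicate 1 and 221 in DZC replicate 2. A count of 0 allows up to 3 counts in that library, so that the highest and the lowest *COL10A1* levels were both found in DZCs. No zone difference was called (FDR = 0.876), and the fitted estimate lay on the SZC side without DZC replicate 2 and on the DZC side otherwise.

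*COL4A1* and *COL4A2*, the broadly expressed chains of basement membrane type IV collagen, were at 90.7 and 216 CPM and at 125 and 165 CPM in SZCs, and at 47.9 and 199 CPM and at 76.1 and 114 CPM in DZCs. The zones overlapped for *COL4A1* (log2 fold change 0.31, SE 0.75, FDR = 1, and below 0 without SZC replicate 2 or without DZC replicate 1) and were separate for *COL4A2* (log2 fold change 0.61, SE 0.40, FDR = 0.793). *COL7A1*, the anchoring fibril gene, was at 48.1 and 36.8 CPM in SZCs and at 23.95 and 17.5 CPM in DZCs. Its replicates agreed within 1.37-fold in each zone, with no overlap between zones (log2 fold change 1.04, SE 0.38, FDR = 0.155), and scaling by library totals made it a call (FDR = 0.0265). *COL18A1*, the multiplexin that carries endostatin, was below 14 CPM in all 4 libraries and its zones overlapped. The transmembrane gene *COL13A1* had 18 and 36 counts in SZCs and 2 and 14 in DZCs.

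The 7 collagen genes that did not pass the filter had between 0 and 57 counts per library. They were *COL4A3*, *COL4A4*, *COL4A5* and *COL4A6*, the type IV chains of specialised basement membranes, the transmembrane genes *COL17A1* and *COL23A1*, and *COL26A1*. The highest count was that of *COL4A5* in DZC replicate 2, at 57, beside 2 and 7 counts in SZCs and 3 in DZC replicate 1. *COL26A1* (8 and 8 counts in SZCs, 10 and 20 in DZCs) and *COL4A3* (0 and 0 in SZCs, 3 and 4 in DZCs) had both DZC libraries above both SZC libraries. Apart from *COL4A5*, none exceeded 20 counts in any library. Without the filter all 38 were tested, and the count of calls was again 3 higher in SZCs and 0 higher in DZCs. Of the 17551 genes then tested, 275 were called higher in SZCs and 86 higher in DZCs.

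Collagen transcripts took a large part of every library. The 38 genes held 16.3% of all counts (95% Wilson interval 16.26% to 16.29%) and 17.2% (17.20% to 17.24%) in SZCs, against 35.9% (35.8950% to 35.9352%) and 23.6% (23.62% to 23.66%) in DZCs. The intervals cover counting error only. Both DZC libraries were above both SZC libraries, and they differed from each other by more than the zones' nearest libraries did. The mean was 16.7% ± 0.668 (SD, n = 2) in SZCs and 29.8% ± 8.68 (SD, n = 2) in DZCs. The difference of 13.03 percentage points had an exact two-sided permutation p of 0.333, the smallest that 2 libraries against 2 can give (adjusted p of 0.333 over 3 such tests), and was 6.89 points without DZC replicate 1. When *COL2A1* was taken out of the collagen counts and of the totals, the other collagen genes took 9.80% and 11.6% in SZCs and 15.2% and 12.4% in DZCs, a difference of 3.03 points (exact p = 0.333).

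Within the collagen counts, the share of types II, IX and XI was 74.2% and 68.6% in SZCs and 97.5% and 84.1% in DZCs. Types I, III and V made up 12.1% and 17.8% in SZCs and 0.735% and 6.69% in DZCs. The type VI share was 7.63% and 5.6% in SZCs and 0.755% and 3.0% in DZCs. These groups were separate between zones, in opposite directions for the cartilage fibril types and the others. Within the first group the difference lay in *COL2A1*, which took 44.1% and 36.6% of the collagen counts in SZCs and 68.1% and 54.5% in DZCs. The type IX share (11.3%, 12.6%, 13.5% and 10.4% in the order SZC replicates 1 and 2 and DZC replicates 1 and 2) overlapped between zones, as did the type XI share (18.7%, 19.3%, 15.8% and 19.3%). Type XII took 2.77% and 5.41% in SZCs and 0.526% and 5.37% in DZCs, so that its share in DZC replicate 2 was near that of SZC replicate 2. Such shares sum to a fixed total within a library and follow transcript length as well as the number of molecules, so they compare libraries and not genes.

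**Figure D3:**
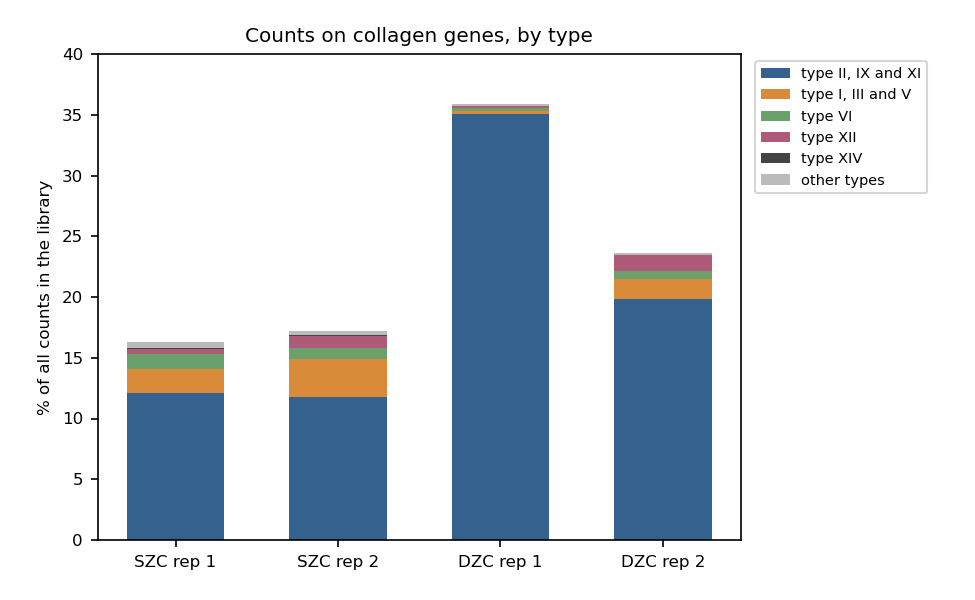
Share of all counts of each library, in percent, that fell on collagen genes, stacked by type (bars start at 0). The bars reach 16.3% and 17.2% for SZCs and 35.9% and 23.6% for DZCs, and the blue part (types II, IX and XI) fills 97.5% of the bar of DZC replicate 1.

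Ratios of counts within a library do not depend on scaling between libraries. The ratio of the type I chains (*COL1A1* and *COL1A2* together) to *COL2A1* was 0.120 and 0.295 in SZCs and 0.00479 and 0.0710 in DZCs. Both SZC ratios were above both DZC ratios, and the DZC ratios were themselves far apart. On the log2 scale the mean was -2.41 ± 0.92 (SD, n = 2) in SZCs and -5.76 ± 2.75 (SD, n = 2) in DZCs, with an exact two-sided permutation p of 0.333. The difference of 3.35 was 1.41 without DZC replicate 1 and 5.30 without DZC replicate 2.

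Chains of the same type were compared in the same way, with no test. For *COL6A1* to *COL6A2* it was 2.27 and 1.97 in SZCs and 2.54 and 1.95 in DZCs. For *COL9A1* to *COL9A2* it was 2.28 and 2.21 in SZCs and 1.80 and 2.00 in DZCs. For *COL11A1* to *COL11A2* it was 0.999 and 1.24 in SZCs and 1.03 and 1.68 in DZCs. The *COL9A1* to *COL9A2* ratios were separate between zones, with SZCs higher, and those of *COL6A1* to *COL6A2* and of *COL11A1* to *COL11A2* overlapped. For these pairs of types VI and IX, the ratio varied less between the DZC libraries than the level of either gene did. *COL6A3* to *COL6A1* (1.40, 1.22, 0.957 and 1.21) and *COL9A3* to *COL9A2* (0.717, 0.774, 1.03 and 0.804) were separate between zones by small margins. *COL5A1* to *COL5A2* (1.73, 0.861, 3.64 and 1.38) and *COL4A1* to *COL4A2* (0.727, 1.31, 0.630 and 1.75) varied more and overlapped. The *COL1A1* to *COL1A2* ratio was 1.03 and 1.28 in SZCs and 2.09 and 2.10 in DZCs. The DZC libraries had nearly the same value here, although the counts of each chain differed over 5-fold between them. With means taken on the log2 scale, the ratio was 1.82-fold higher in DZCs than in SZCs.

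The type VIII ratio stood apart among these ratios. *COL8A1* to *COL8A2* was 1.44 and 1.87 in SZCs and 0.252 and 0.437 in DZCs, so that *COL8A1* had the greater count in SZCs and *COL8A2* in DZCs. With means taken on the log2 scale, the ratio was 4.94-fold higher in SZCs. After the data had been seen, the FACIT genes *COL12A1* and *COL14A1* were added to these ratios. Their ratio was 4.32 and 9.56 in SZCs and 23.1 and 56.0 in DZCs, and was separate between zones. With means taken on the log2 scale, it was 5.6-fold higher in DZCs. This ratio is not independent of the call of *COL14A1*, which was already known to be higher in SZCs. On the log2 scale the difference of SZCs from DZCs was -2.49, with -3.12 without DZC replicate 1, -3.06 without SZC replicate 2, -1.85 without DZC replicate 2 and -1.91 without SZC replicate 1. The ratio of *COL3A1* to *COL1A1*, added at the same time, was 2.07 and 0.836 in SZCs and 1.43 and 0.753 in DZCs, and overlapped.

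**Figure D4:**
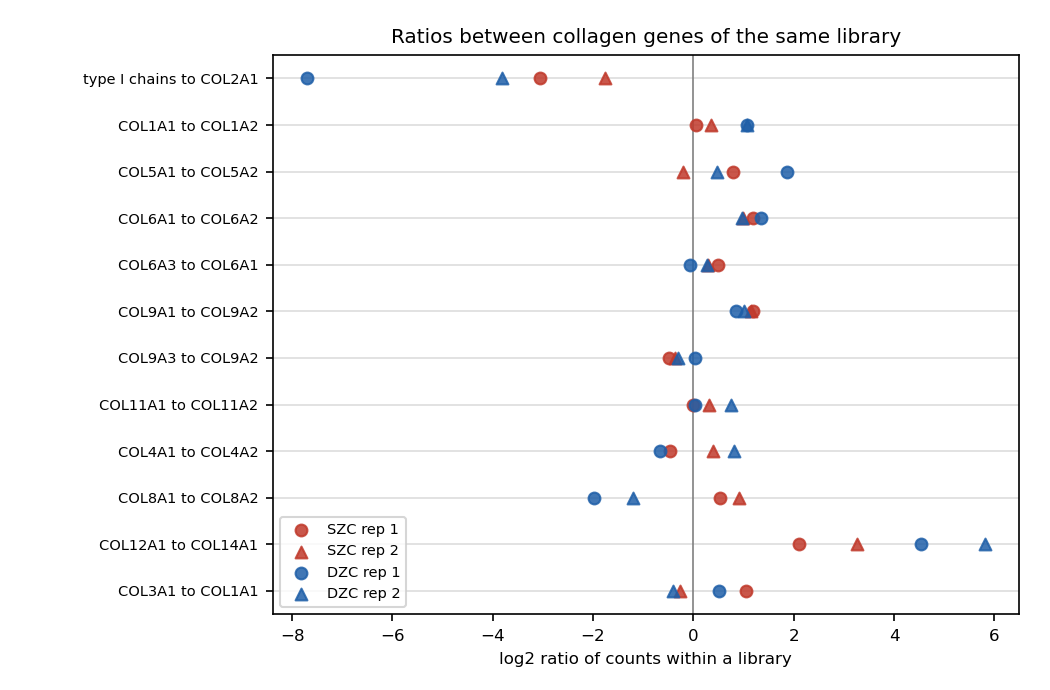
Log2 ratio of the counts of collagen genes within each of the 4 libraries (points as named in the legend), with 0 marking equal counts. The zones are separate for the type I chains to *COL2A1*, for *COL1A1* to *COL1A2*, for *COL8A1* to *COL8A2* and for *COL12A1* to *COL14A1*. By smaller margins they are also separate for *COL6A3* to *COL6A1*, for *COL9A1* to *COL9A2* and for *COL9A3* to *COL9A2*. The blue points of *COL1A1* to *COL1A2* coincide at ratios of 2.09 and 2.10.

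Many collagen genes differed between the DZC libraries. Of the 31 tested, 16 were over 2-fold higher in DZC replicate 2 than in DZC replicate 1, beside 17.4% of all genes tested, and 7 were over 2-fold higher in DZC replicate 1, beside 7.79%. Between the SZC libraries, 5 were over 2-fold higher in replicate 2, beside 5.41% of all genes, and 0 were over 2-fold higher in replicate 1, beside 2.18%. The 7 that were higher in DZC replicate 1 were *COL2A1*, *COL9A1*, *COL9A2*, *COL9A3*, *COL11A2*, *COL27A1* and *COL28A1*. *COL2A1* was 2.80-fold, *COL9A3* 3.72-fold and *COL27A1* 3.40-fold higher there. The genes higher in DZC replicate 2 included those of types I and V, with *COL1A1* 5.30-fold, *COL1A2* 5.27-fold, *COL5A2* 7.92-fold and *COL5A3* 11.8-fold higher, and *COL12A1*, 4.56-fold higher. With DZC replicate 2 left out, 27 of the 31 collagen genes were called, and 2725 genes in all.

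**Figure D5:**
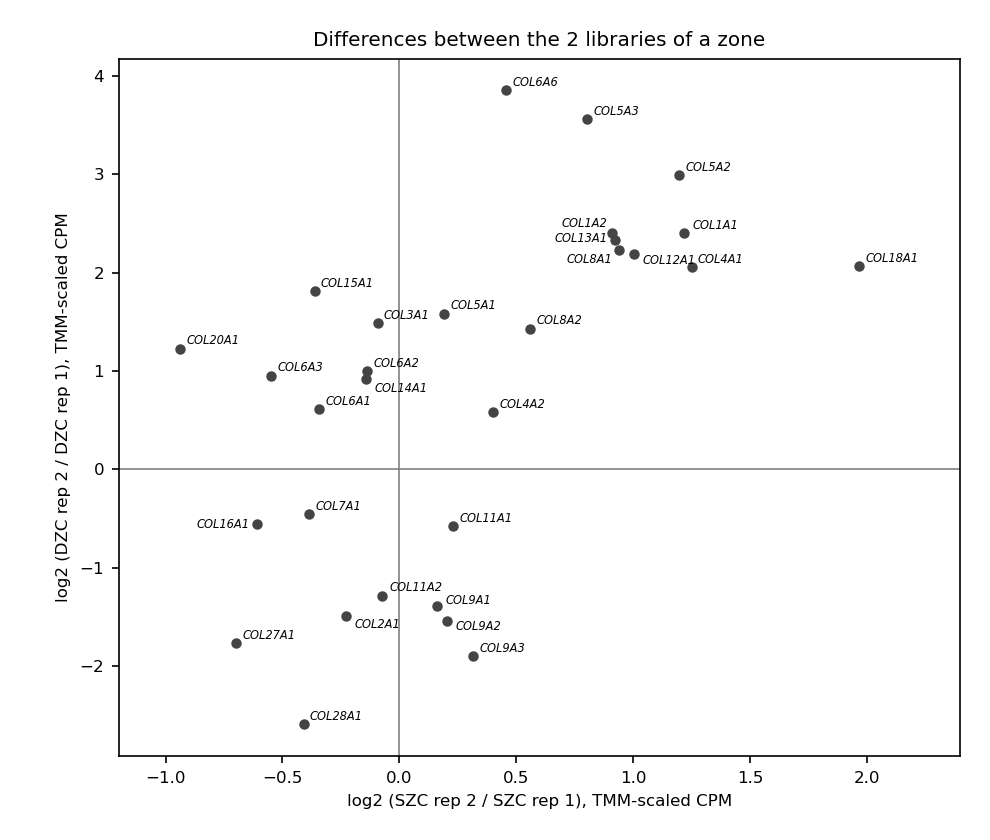
Log2 fold difference between the libraries of a zone for 30 tested collagen genes (each point a gene; *COL10A1*, with 0 counts in DZC replicate 1, is not drawn), with SZC replicate 2 over replicate 1 on the horizontal axis and DZC replicate 2 over replicate 1 on the vertical axis, both from TMM-scaled CPM. Genes of types II, IX and XI lie below 0 on the vertical axis, and those of types I, III, V and VI above it.

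Markers of other cells and states also differed between the DZC libraries. The 5 cell cycle genes listed (*MKI67*, *TOP2A*, *CCNB1*, *TTK* and *BUB1*) summed to 151 and 177 CPM in SZCs, 12.2 CPM in DZC replicate 1 and 271 CPM in DZC replicate 2, and all 5 were detected in every library. The 7 hypertrophic chondrocyte genes summed to 133 CPM in each SZC library, 92.3 CPM in DZC replicate 1 and 272 CPM in DZC replicate 2. Of these, *MMP13* had 0 counts in 3 libraries and 468 in DZC replicate 2, and *ALPL* had 10, 5, 1 and 445 counts in the order SZC replicates 1 and 2 and DZC replicates 1 and 2. *SPP1* was at 108, 102, 18.9 and 201 CPM, most of the sum in every library but DZC replicate 1. Lower in DZC replicate 2 than in DZC replicate 1 were *PTH1R* (45.8 and 17.5 CPM), *MEF2C* (11.4 and 8.79 CPM) and *PHOSPHO1* (4.04 and 2.20 CPM). *IHH*, a signal of prehypertrophic chondrocytes, was higher in DZCs (13, 5, 194 and 48 counts, FDR = 0.0160), a call lost without SZC replicate 1 (FDR = 0.249), SZC replicate 2 (FDR = 0.552) or DZC replicate 1 (FDR = 0.0588). The 5 osteoblast genes summed to 0.909 and 0.862 CPM in SZCs, 0.187 CPM in DZC replicate 1 and 19.7 CPM in DZC replicate 2, where *IBSP* had 268 and *SP7* 140 counts while *BGLAP* and *DMP1* had 1 count each.

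The levels of other marker lists were as follows in the same order of libraries. The 7 chondrocyte markers summed to 32534, 41100, 82326 and 31347 CPM, most of it *ACAN* (26525, 32369, 64599 and 23329 CPM). *ACAN*, *SOX9*, *COMP* and *HAPLN1* were higher in DZC replicate 1 than in DZC replicate 2. *SOX6* was nearly the same in both (27.1 and 26.4 CPM), and *SOX5* and *MATN3* were lower in DZC replicate 1. The 5 pericyte and smooth muscle genes summed to 23.4, 112, 56.9 and 321 CPM, of which *ACTA2* gave 254, 2164, 855 and 6938 counts, and replicate 2 was the higher library in both zones. The 5 tendon and fibroblast genes summed to 86.5, 203, 105 and 194 CPM, with *TCF21* at 0 in all 4 libraries and *TNMD* at 1, 10, 0 and 3 counts. The 5 endothelial genes summed to 5.32, 10.6, 3.86 and 7.80 CPM. The 5 immune genes summed to 17.04, 27.2, 6.35 and 12.1 CPM, with both SZC libraries above both DZC libraries as for the called collagen genes, and with *PTPRC* at 6, 14, 0 and 9 counts. None of the 3 immune genes tested was called, and *CD14* had a log2 fold change of 1.41 (FDR = 0.142). The TMM factor, which corrects for differences in composition, was 0.735 in DZC replicate 1 and between 1.08 and 1.14 in the others. What part these differences have in the collagen levels was not tested.

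Collagen chains need modifying enzymes, chaperones, proteinases that trim the propeptides, and lysyl oxidases that crosslink fibrils. A list of 34 such genes, which also held the *SOX5*, *SOX6* and *SOX9* regulators of cartilage collagen genes, had 33 members counted and tested. Of these, 2 were called higher in SZCs and 1 higher in DZCs, beside 2.23% and 0.7% of all genes tested, and the median log2 fold change was 0.15, beside -0.04 for all genes tested. *PCOLCE2*, an enhancer of propeptide removal, had 2586 and 2526 counts in SZCs and 541 and 683 in DZCs, and rose in SZCs by a log2 fold change of 1.82 (SE 0.33, FDR = 2.14e-05). *LOXL1*, a lysyl oxidase, had 3550 and 4786 counts in SZCs and 178 and 1157 in DZCs (log2 fold change 2.54, SE 0.71, FDR = 0.0302), with a log2 fold change of 1.83 without DZC replicate 1 and 4.07 without DZC replicate 2. *LOXL4*, another lysyl oxidase, had 305 and 919 counts in SZCs and 989 and 19092 in DZCs (log2 fold change -4.10, SE 1.09, FDR = 0.0452), with DZC replicate 2 far above the other libraries. By the quasi-likelihood test of edgeR the FDR was 0.1247, 0.375 and 0.434 for these genes, and DESeq2 did not call *LOXL4* (FDR = 0.189). Scaling by library totals, or by totals without the collagen counts, ended the calls of *LOXL1* (FDR = 0.133 and 0.110) and *LOXL4* (FDR = 0.161 and 0.104).

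Leaving out SZC replicate 1 ended the calls of *PCOLCE2* (FDR = 0.265), *LOXL1* (FDR = 0.107) and *LOXL4* (FDR = 0.583), and leaving out SZC replicate 2 those of *PCOLCE2* (FDR = 0.0891) and *LOXL1* (FDR = 0.135). Without DZC replicate 2, *LOXL4* had a log2 fold change of -1.19 and was still called (FDR = 0.0465). The 30 other genes did not pass the test. Among them *SERPINH1*, the collagen chaperone, had 84459 and 84943 counts in SZCs and 96754 and 64236 in DZCs (log2 fold change -0.25, SE 0.49). The prolyl hydroxylase gene *P4HA1* had 27278 and 29869 counts in SZCs and 17971 and 23250 in DZCs (log2 fold change 0.23, SE 0.37). *PCOLCE*, the paralog of *PCOLCE2*, was just outside the threshold (log2 fold change 1.59, FDR = 0.0621). *SOX9* had a log2 fold change of -0.05, while *SOX5* and *SOX6* had 0.99 (FDR = 0.115) and 1.02 (FDR = 0.0948).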

How the data were processed

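RNA was sequenced as single-end reads from a low-input kit. Reads were aligned by the authors with STAR 2.5.2b to the cattle genome (UMD 3.1, Ensembl). The deposited values are raw counts of reads on each of 24596 genes, made without regard to strand. A second deposited table holds the authors' own fold changes and FDR values. It was read only for gene symbols of the 6119 rows without one, and 0 collagen names came from it. ATAC-Seq samples were not analysed here.

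Counts were tested with edgeR 4.0.16 in R 4.3.3, using the default filter, TMM scaling and the exact test named in the study's methods, with Benjamini–Hochberg adjustment over all 12857 genes. Replicates differed by far more than sampling noise in both zones. The script was tested on simulated data that varied less between replicates than these libraries, so this checked the code and not the calls. Collagen genes were named in full where they passed the threshold, belonged to types I, II, III, V, VI, IX, X, XI, XII or XIV, led their class, or differed strongly within a zone, and others by counts. Ratios used an offset of 0.5 counts. Alternatives were the quasi-likelihood test with and without a replicate block, DESeq2 1.42.0, other filters, scalings and dispersion estimates, and leaving out each library. Members and lists were chosen with earlier results of these data known. Sequences and coordinates of the files' genome build were not used here.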

Additional observations from a re-analysis of the deposited data

How the results depend on the processing

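The number of collagen genes called higher in SZCs was 3 in the analysis reported and 0 with the quasi-likelihood test of edgeR (which called 0 genes in all, with 1126 genes and 6 collagen genes at an unadjusted p-value below 0.05), 5 with DESeq2, 5 with common and then gene-wise dispersion (289 and 295 of all genes, against 287 in the analysis reported), and between 0 and 21 with 1 library left out. The number called higher in DZCs was 0 in the analysis reported, 2 with DESeq2 and 1 with common and then gene-wise dispersion. Of all genes, 90, 108 and 94 were called higher in DZCs in the same order. In the analysis reported, 14 collagen genes in all had an unadjusted p-value below 0.05. The number of collagen genes called higher in DZCs also differed between the fits with 1 library left out. A zone left with 1 library was assumed to vary like the other zone. Without SZC replicate 1 the exact test called 58 genes in all, and without DZC replicate 2 it called 2725. The zone difference in the share of counts on collagen genes was 3.03 points with *COL2A1* taken out.

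Slices of both zones came from shared cores of a joint. Neither the labels nor the methods say whether libraries with the same number came from the same joint, so their pairing is unknown. Over 12857 genes (not independent of each other) the correlation of their deviations from the zone mean was 0.42, and 19 of 31 collagen genes deviated together. The quasi-likelihood test with the replicate block called 347 genes, against 377 in the analysis reported, and 4 collagen genes, all higher in SZCs: *COL8A1* (FDR = 0.00924), *COL5A3* (FDR = 0.0197), *COL14A1* and *COL28A1*. *COL15A1* was not called (FDR = 0.0618), and the log2 fold change of *COL12A1* turned to 0.075. In the 9 alternatives that kept all 4 libraries, no other collagen gene tested changed direction.

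With 1 library left out, the log2 fold change changed direction for *COL10A1* (from -3.43 to 7.23, where the fit against a library at 0 depends on the prior count), *COL12A1* (from -0.93 to 1.27), *COL20A1* (from -0.81 to 0.48), *COL27A1* (from -0.50 to 1.25), *COL4A1* (from -0.44 to 1.69) and *COL8A2* (from -0.36 to 1.08). So did the zone difference in the log2 ratio of *COL6A1* to *COL6A2* (from -0.26 to 0.12), *COL11A1* to *COL11A2* (from -0.59 to 0.11), *COL4A1* to *COL4A2* (from -0.84 to 0.63) and *COL3A1* to *COL1A1* (from -0.31 to 1.00). Scaling by library totals moved the median of all genes by 0.30 on the log2 scale and the share of calls that were higher in SZCs from 76.1% to 86.7% (287 and 288 genes, while those higher in DZCs went from 90 to 44), and the median of the collagen genes from 0.84 to 1.07. Levels per kilobase were not run, because transcript lengths were not used here.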
